A study of Mus musculus with 2 samples.

Results

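The genes described here make sialic acid and attach it to sugar chains. There are 10 of them, chosen by name: Gne, Nans and Cmas, which build the activated sugar, and 7 transferases, St3gal1 to St3gal6 and St6gal1, which place it on glycans. All non-control probes whose RefSeq accession belongs to 1 of these genes were taken, 13 probes in all, among 20658 genes with a named probe. All 10 genes were measured, meaning well above background on both arrays, as were 18239 named genes in all.

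RNA came from the filtering units of the kidney, the glomeruli. The male mice were 8 months old and had been injected once in the peritoneum with 0.5 ml of pristane, an oil that sets off lupus-like disease, 4 months before. The group labelled Sirpa-/-, with SIRPα deleted in podocytes alone, and the wild type (WT) group had 1 Agilent one-colour array each, so both groups carry the pristane treatment and no uninjected animals were analysed here. The sources used here give neither the driver of the podocyte deletion nor the number of animals behind each array, and the series' design text names podocytes where the sample labels name glomeruli. SIRPα is an inhibitory receptor for CD47, and the title of the series asks whether its loss lets podocytes present antigen to T cells.

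A single array per group allows no replicate check, no test and no p-value, so every difference below is one between these 2 arrays. Signals are processed fluorescence intensities, and differences are on the log2 scale, with WT subtracted from the array labelled Sirpa-/-, after each array was divided by its own 75th percentile (a signal of 1109 on the array labelled Sirpa-/- and 1157 on the WT array). Gene probes well above background made up 86.7% on the array labelled Sirpa-/- and 85.3% on the WT array, and no spot was saturated. All 8 podocyte markers, all 6 endothelial markers and all 4 mesangial markers were measured on both arrays, and none of these 18 genes differed 2-fold. Smaller differences were present. Podocyte markers were above 0 in 7 of 8 cases (median 0.17). Endothelial markers were below 0 in 4 of 6 (median -0.08) and mesangial markers in 3 of 4 (median -0.19). The targeted gene, Sirpa, had a signal of 17316 on the array labelled Sirpa-/- and 11624 on the WT array, 1.55-fold higher where the label says it was deleted. The sources used here do not place its only probe relative to the deleted part, and the other glomerular cells keep their Sirpa, so the probe may check nothing. The wording "the array labelled Sirpa-/-" is therefore used throughout.

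Sialic acids are acidic sugars that end many glycans on cell surfaces. Gne, an epimerase and kinase, commits a nucleotide sugar to the pathway, Nans condenses the product into sialic acid phosphate, and Cmas activates free sialic acid with a nucleotide in the nucleus. In the Golgi the St3gal enzymes and St6gal1 then attach it to galactose in different linkages. In the glomerulus sialic acid gives podocalyxin, the main coat protein of podocyte foot processes, much of its negative charge, and mice with a mutated Gne or Cmas develop glomerular disease. On leukocytes, sialylated glycans are read by Siglec receptors and selectins, and SIRPα and CD47 are themselves glycoproteins.

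RefSeq promoter windows, from 250 bases before to 50 bases after an annotated start, were at hand for 7 of the 10 genes, 11 windows in all, in the mouse build GRCm38.p6. The upstream parts that lie outside the gene are shown for the enzyme that commits sugar to the pathway (Gne), for the members with the highest (Cmas) and the lowest (St3gal4) difference between the arrays, and for the transferase that makes the ligand of Cd22 (St6gal1). Capitals mark the GC box GGGCGG or its reverse complement.
Gne (chr4:44084178-44084427, minus strand): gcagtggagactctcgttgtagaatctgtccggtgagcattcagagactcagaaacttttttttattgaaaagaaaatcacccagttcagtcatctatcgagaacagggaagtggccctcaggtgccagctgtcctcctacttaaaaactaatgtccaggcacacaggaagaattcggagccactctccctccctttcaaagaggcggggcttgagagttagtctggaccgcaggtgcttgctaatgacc
Cmas (chr6:142756436-142756685, plus strand): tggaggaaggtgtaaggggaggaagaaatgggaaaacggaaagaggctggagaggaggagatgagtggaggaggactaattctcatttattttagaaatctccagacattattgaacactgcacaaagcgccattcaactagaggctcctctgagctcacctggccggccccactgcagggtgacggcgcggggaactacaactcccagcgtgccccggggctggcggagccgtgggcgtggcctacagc
St3gal4 (chr9:35116865-35117114, minus strand): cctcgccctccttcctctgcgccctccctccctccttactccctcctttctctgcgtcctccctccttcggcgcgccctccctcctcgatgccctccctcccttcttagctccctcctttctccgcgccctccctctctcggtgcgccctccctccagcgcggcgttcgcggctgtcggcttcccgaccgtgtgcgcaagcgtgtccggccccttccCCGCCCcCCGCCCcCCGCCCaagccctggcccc
St6gal1 (chr16:23224490-23224728, plus strand): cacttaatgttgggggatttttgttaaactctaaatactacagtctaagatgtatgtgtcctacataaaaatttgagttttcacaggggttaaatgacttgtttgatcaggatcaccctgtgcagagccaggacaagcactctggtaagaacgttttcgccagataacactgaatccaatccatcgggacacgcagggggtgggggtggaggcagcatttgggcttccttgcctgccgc

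Of these printed stretches, that of St3gal4 held 3 GC boxes next to each other and the other 3 held 0. The full windows behind the Cmas and St6gal1 stretches each held 1 GC box outside the printed part. It began at position 14 for Cmas and -5 for St6gal1, relative to the annotated start. Gne and St6gal1 have more than 1 window, of which the most upstream is shown. Over the full windows, a GC box on either strand was found in 6 of the 11 member windows, against 35.7% of all 32851 windows of that length. The letters TATAAA, searched on both strands, were in 0 of the 11, against 13.6% of all windows. GC content of the member windows ran between 38.7% and 74%, with a median of 52.7% over all windows. The windows thus differed widely among the members. These matches describe letters only.

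None of the 10 genes differed by as much as 1.5-fold between the arrays. On the array labelled Sirpa-/-, 0 of 10 were higher by 2-fold or more, against 1.56% of all measured named genes, and 0 of 10 were lower by 2-fold or more, against 1.67%. At 1.5-fold in either direction the count was again 0 of 10, against 9.61% of all genes, so the members' counts lie near the background. The members' differences ran between -0.24 (St3gal4) and 0.19 (Cmas), with a median of -0.07, while the median over all named genes was 0.00. The median size of a difference, sign aside, was 0.16 for the members and 0.15 for all named genes, and 31.9% of all genes differed by more than St3gal4 did. The members therefore moved about as little as a typical gene of these arrays.

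**Figure D1:**
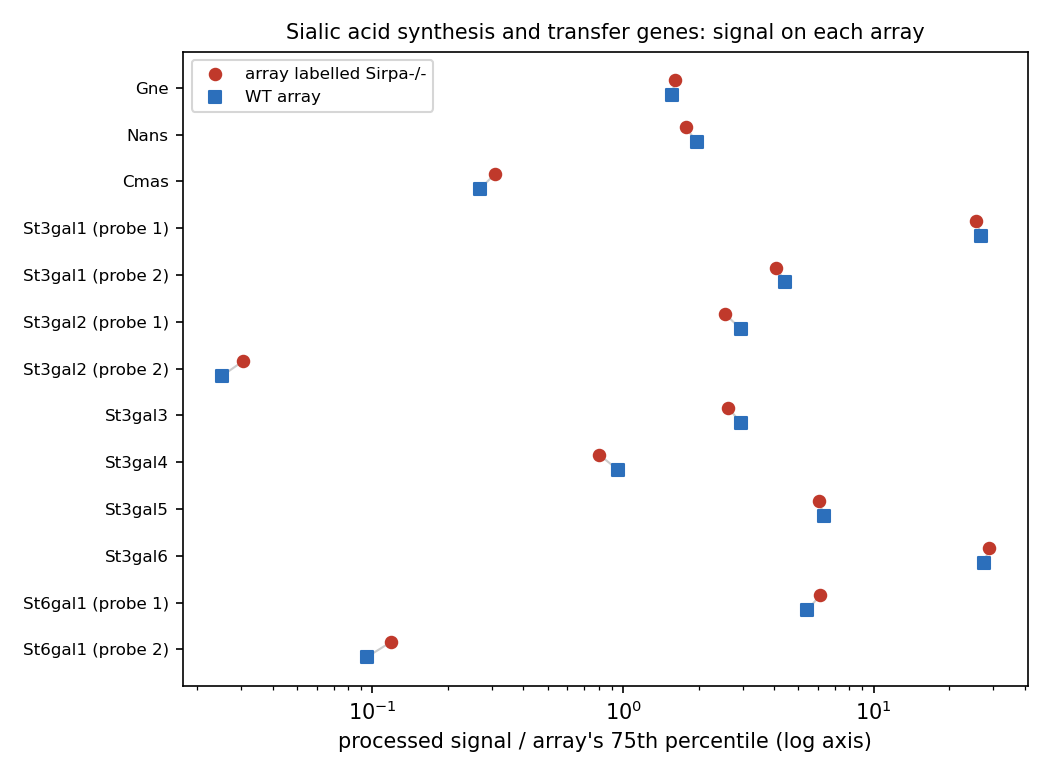
Processed signal divided by the array's 75th percentile (log axis) for each of the 13 probes, with the array labelled Sirpa-/- as red circles and the WT array as blue squares, 1 array each. The 2 marks of every probe lie close together; signals of different probes are not comparable as levels.

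Gne, the entry enzyme of the pathway, which its end product inhibits, had a signal of 1790 on the array labelled Sirpa-/- and 1810 on the WT array, a log2 difference of 0.05 after scaling. Nans, the sialic acid phosphate synthase, had 1969 on the array labelled Sirpa-/- and 2281 on the WT array, a difference of -0.15. Cmas, which makes CMP-sialic acid, had 341 on the array labelled Sirpa-/- and 312 on the WT array, a difference of 0.19. The 3 synthesis genes did not share a direction. The scanner software's own error for a single spot was close to 10% of the signal for these 3 probes, which gives a log2 error of 0.20 for a difference, and each of the 3 differences was smaller than that. Nans and Cmas differed by more than the technical SD of 0.07 given below for repeated spots, and Gne by less.

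By their brightest probes, 5 of the 6 St3gal transferases lay slightly below 0 and 1 above, with a median of -0.12. With the mean of a gene's probes 4 of 6 lay below 0, since the probes of St3gal2 disagree. Among all measured named genes 49.8% were below 0. St3gal1, which caps core O-glycans, had a signal of 28489 on the array labelled Sirpa-/- and 31138 on the WT array, a difference of -0.07, and its other probe gave 4532 on the array labelled Sirpa-/- and 5134 on the WT array, a difference of -0.12. Its probes therefore went the same way by small amounts.

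St3gal2, which acts on O-glycans and gangliosides, had 2835 on the array labelled Sirpa-/- and 3432 on the WT array, a difference of -0.21. Its dimmer probe had 33.8 on the array labelled Sirpa-/- and 29 on the WT array, a difference of 0.28. The probes of this gene point in opposite directions, so no direction can be given for St3gal2. The brighter probe's difference was about the size of its scanner error (0.20), and the dim probe's was above its own (0.23).

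St3gal3, which caps N-glycan antennae among other chains, had 2910 on the array labelled Sirpa-/- and 3427 on the WT array, a difference of -0.17. St3gal4, which with St3gal6 takes part in making selectin ligands on leukocytes, had 891 on the array labelled Sirpa-/- and 1102 on the WT array. Its difference of -0.24, or 0.84 times the WT signal, was the largest of the 10 and a little beyond the scanner error of 0.20. With the background corrected by normexp it was -0.08, on a scale where the median of all named genes was 0.07.

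St3gal5 makes the ganglioside GM3, from which the more complex gangliosides of podocytes and other cells are built. It had a signal of 6721 on the array labelled Sirpa-/- and 7343 on the WT array, a difference of -0.07. St3gal6 had 32026 on the array labelled Sirpa-/- and 31868 on the WT array, a difference of 0.07. Both differences were well within the scanner error.

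**Figure D2:**
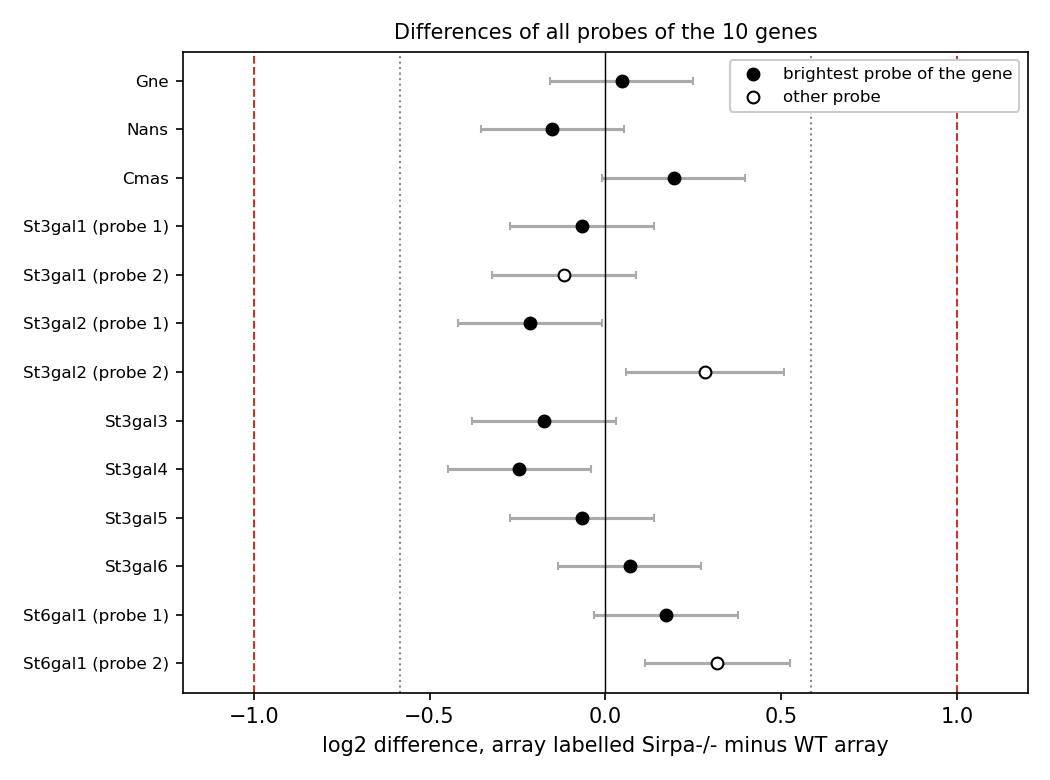
Log2 difference (array labelled Sirpa-/- over WT) of each probe of the 10 genes, with bars for the scanner software's error of the difference, dotted lines at 1.5-fold and dashed lines at 2-fold. All 13 probes lie inside the dotted lines, and the 2 probes of St3gal2 lie on opposite sides of 0.

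St6gal1, which places sialic acid on N-glycans in the linkage that the B cell lectin CD22 binds, was somewhat higher on the array labelled Sirpa-/- on both of its probes. The brighter probe had a signal of 6790 on the array labelled Sirpa-/- and 6291 on the WT array, a difference of 0.17. That difference was smaller than the probe's scanner error of 0.20. The other probe was spotted 10 times on each array, which makes it the member with the most technical repeats. Its spots ran between 106 and 149 with a median of 138 on the array labelled Sirpa-/-, against 85.4 to 125 with a median of 117 on the WT array.

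The spot signals of the arrays overlap, yet at each of the 10 positions the array labelled Sirpa-/- was higher. The difference averaged 0.32 ± 0.17 (SD over 10 spots), from 0.10 at the lowest spot to 0.75 at the highest. These spots share 1 RNA sample per array, so they measure technical spread and say nothing of the spread between animals. The average of 0.32 was above the scanner error of a single spot of this probe (0.21). The 2 probes give 1.13-fold and 1.25-fold.

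**Figure D3:**
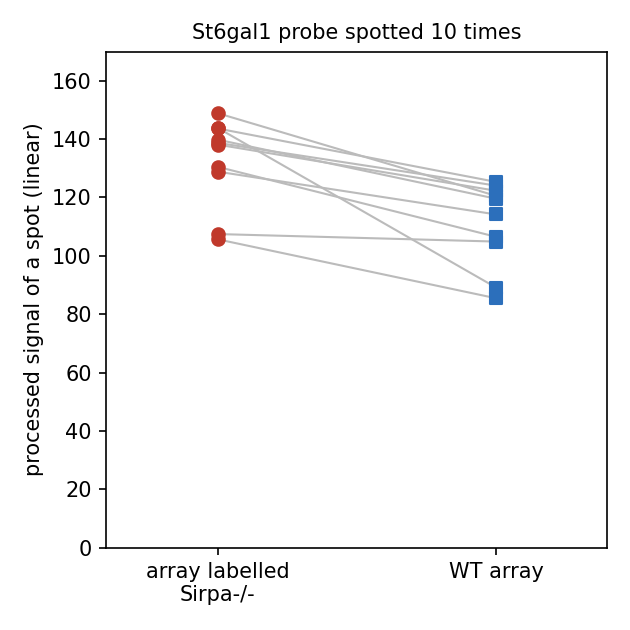
Processed signal (linear axis from 0) of the 10 spots of the St6gal1 probe that was spotted 10 times, left for the array labelled Sirpa-/- and right for the WT array, with lines joining spots at the same position. All 10 lines slope down towards the WT array.

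B cells are a known site of strong St6gal1 expression, and their markers were higher on the same array as the St6gal1 probes, beside shifts of other cell types. All 8 of 8 B cell markers were measured and all 8 were higher on the array labelled Sirpa-/-, 4 of them at least 2-fold, with a median difference of 1.33. The summed scaled signal of the list was 3.53 on the array labelled Sirpa-/- and 0.92 on the WT array, in units of the array's 75th percentile. Cd22 weighs most in these sums, with signals of 2562 on the array labelled Sirpa-/- and 536 on the WT array. None of the 8 markers lay at 0, and Cd79b, a B cell receptor subunit, had 454 on the array labelled Sirpa-/- and 129 on the WT array, a difference of 1.87. Cd79a and Blk were dim, at 22.1 and 19 on the array labelled Sirpa-/-. The other probe of Pax5 gave 0.07. Other marker lists shifted too. By their brightest probes, T cell markers were higher on the array labelled Sirpa-/- in 6 of 6 cases (median 0.56). The other probes of Cd2 and Cd4 gave 0.32 and 0.00. The 6 erythroid and platelet markers had a median of 1.5 with 4 at 2-fold, and the 4 measured neutrophil markers a median of 0.51. Plasma cell markers were above 0 in 3 of 5 cases (median 0.19), while 4 of 5 measured macrophage markers were below 0 (median -0.10). Distal nephron markers had a median of 0.94 over 6 genes with 2 at 2-fold. By their brightest probes, 6 of 6 proximal tubule markers were below 0 (median -0.26). The other probes of Cubn and Slc34a1 gave 0.29 and 0.00. The part of B cells or of any of these other cells in the St6gal1 difference was not tested. In RNA of a whole tissue, a change in the number of cells of a type and a change in RNA per cell cannot be told apart.

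Over the 13 probes, 0 differed by 2-fold, against 3.48% of all measured probes, and 0 by 1.5-fold, against 9.97%. In 9 of 13 the difference was smaller than the scanner error. That error is the software's own estimate and lay between 10% and 11.3% of the signal for every member probe on each array. Of the 3 members with a pair of probes, St3gal1 and St6gal1 kept one direction and St3gal2 did not. As a yardstick of technical spread, the 360 measured probes that were spotted 10 times had a median SD of 0.07 between differences taken at matched positions, and 0.12 with positions not matched. The matched SD was 0.31 for the 102 of them with signals under 100, 0.07 for the 121 with signals of 100 to 1000 and 0.05 for the 137 with signals of 1000 or more. The St6gal1 probe spotted 10 times lies in the middle range, and its own SD of 0.17 was larger than the median there. The dim probe of St3gal2 is the only member probe with a signal under 100. By their brightest probes, 8 of 10 members differed by less than their scanner error. Only 3 of 10 differed by less than the matched SD of 0.07 over all 360 probes, so the yardsticks do not rank the members alike. Those 3 are Gne, St3gal1 and St3gal5, all with signals above 1000, where the matched SD was 0.05. St3gal1 and St3gal5 (each -0.07) exceeded that SD in size and Gne did not.

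Genes around the pathway stayed under 2-fold, apart from 3. The supply of hexosamine, the starting sugar, had 5 of 5 genes measured and 0 at 2-fold, with a median of -0.10. Gfpt2 gave -0.45, with signals of 170 on the array labelled Sirpa-/- and 243 on the WT array. Gfpt1, with 5039 and 5646 in the same order, gave -0.10 (-0.20 on its other probe). Gnpnat1 gave -0.18 (0.05 on its other probe) and Pgm3 0.19 (0.29 on its other probe). Among 5 genes that handle the precursor and its transport, 0 of 5 reached 2-fold and the median was again -0.10. Slc35a1, the Golgi transporter of CMP-sialic acid, gave 0.18 and Nanp, the phosphatase between Nans and Cmas, -0.10. Cmah, which converts the acetyl form of sialic acid to the glycolyl form in mice, gave -0.08, Renbp -0.10 and Casd1, which O-acetylates sialic acid, -0.22.

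The removal genes also stayed under 2-fold, with 0 of 7 measured genes past it and a median of 0.13. Neu1, the lysosomal sialidase, gave 0.27, Slc17a5, which exports sialic acid from lysosomes, 0.31 (0.07 on its other probe) and Npl, which cleaves it, 0.32. Neu2, another sialidase, gave -0.49 and the esterase Siae -0.33. Neu4 was above background on the array labelled Sirpa-/- alone, with signals of 6.47 there and 6.06 on the WT array. The lowest signals called above background were 6.21 on the array labelled Sirpa-/- and 6.72 on the WT array. No size of difference is given for Neu4. The degradation genes did not share a direction.

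Transferases outside the 10 included 1 large difference. St6galnac2, which adds sialic acid to O-glycans, had a signal of 546 on the array labelled Sirpa-/- and 11908 on the WT array, 20.9-fold lower on the array labelled Sirpa-/- (a difference of -4.39 on its only measured probe). Of the other 12 in that list, 10 were measured and 0 of them reached 2-fold. The next largest were St6galnac5 at -0.67, with dim signals of 10.4 on the array labelled Sirpa-/- and 17.3 on the WT array, then the polysialyltransferase St8sia4 at -0.54 and St8sia6 at -0.36.

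The list as a whole had 9 of 11 measured genes below 0 and a median of -0.21. Taken with the St3gal enzymes and St6gal1, 14 of 18 measured sialyltransferases were below 0 by their brightest probes, against 49.8% of all measured named genes, and St6galnac2 alone among the 14 was past 2-fold. The 14 include St3gal2 and St6galnac1 (-0.27), whose other probes lay above 0, at 0.28 and 0.12. With the mean of a gene's probes the count was 13 of 18. With normexp it was 11 of 18, while 34.6% of all genes were below 0 on that scale.

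**Figure D4:**
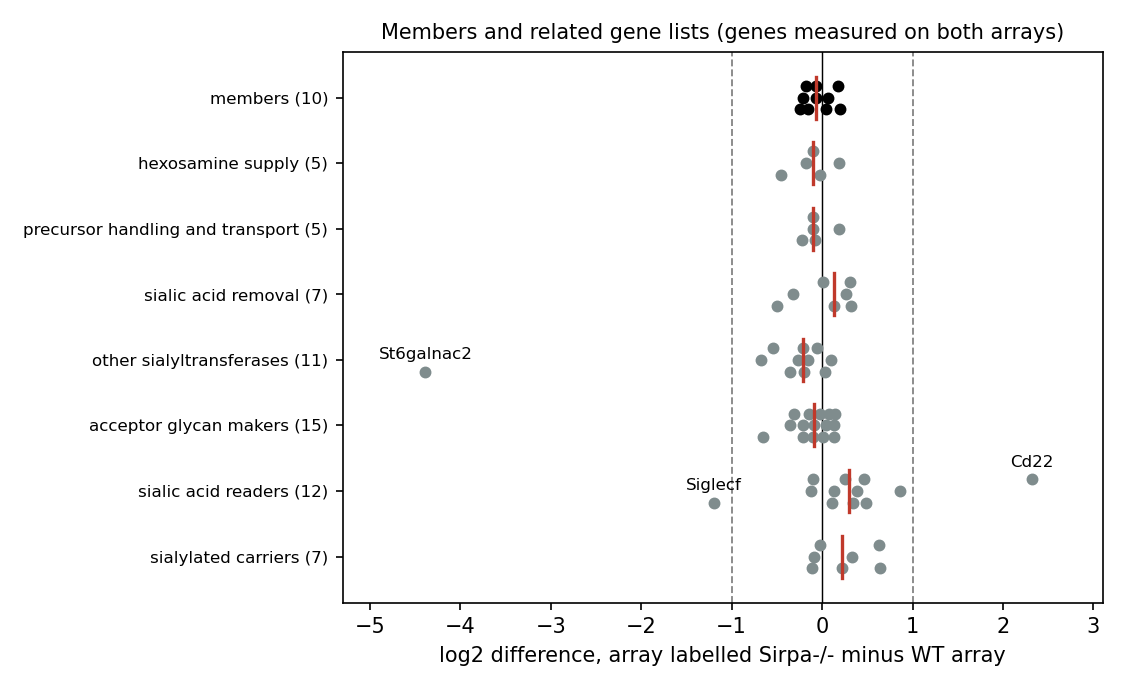
Log2 difference (array labelled Sirpa-/- over WT) of the 10 members (black) and of measured genes in 7 related lists (grey), number of genes in brackets, red bars for medians and dashed lines at 2-fold. The members cluster near 0, and only St6galnac2, Cd22 and Siglecf lie beyond 2-fold.

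Enzymes that make the acceptor glycans had 15 of 15 genes measured and 0 at 2-fold, with a median of -0.09. The fucosyltransferase Fut7, which finishes selectin ligands on leukocytes, gave -0.65 at dim signals, Fut9 -0.35, B4galt4 -0.31 (-0.16 on its other probe) and B4galt6 -0.21. The sialylated carriers had 0 of 7 at 2-fold and a median of 0.22. Podxl, the podocalyxin gene, had 45330 on the array labelled Sirpa-/- and 40618 on the WT array, a difference of 0.22. Nephrin (Nphs1) gave 0.63, and Cd47 0.34 with 0.47 on its other probe.

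Among 12 receptors and binders of sialic acid, 1 was past 2-fold upwards and 1 downwards on the array labelled Sirpa-/-, 9 lay above 0 and the median was 0.30. Cd22, the B cell receptor for the St6gal1 product, had 2562 on the array labelled Sirpa-/- and 536 on the WT array, 4.99-fold higher. Siglecf, an eosinophil lectin, had dim signals of 18 on the array labelled Sirpa-/- and 43 on the WT array, a difference of -1.19. Differences among the readers were thus larger than among the synthesis and transfer genes, as values of these 2 arrays. Cd22 is also 1 of the 8 B cell markers given above.

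**Figure D5:**
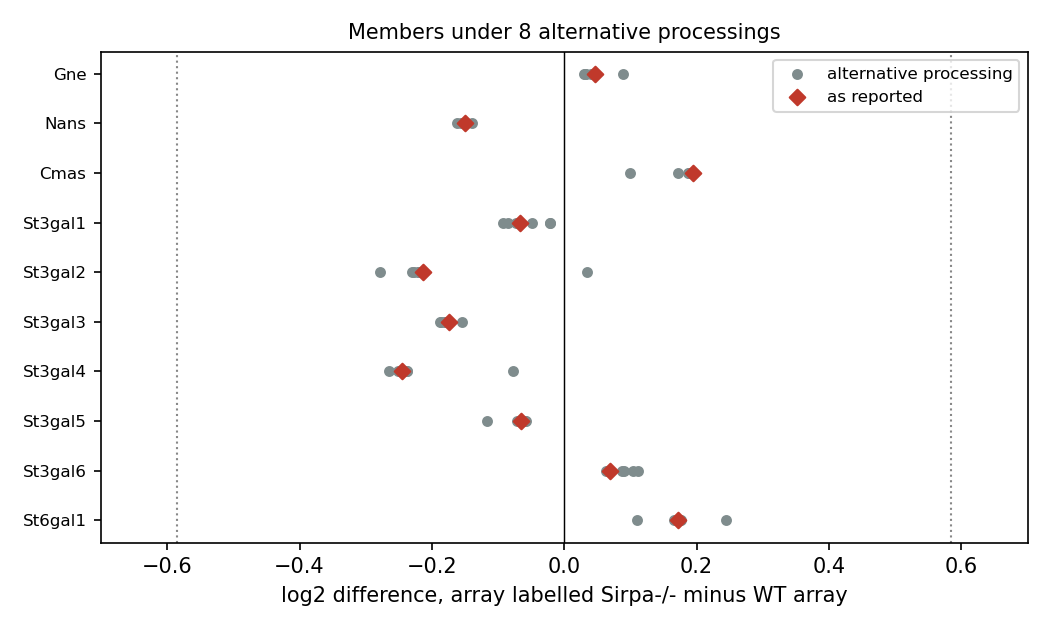
Log2 difference (array labelled Sirpa-/- over WT) of each member as reported (red diamonds) and under 8 other ways of processing (grey points), with dotted lines at 1.5-fold. All values lie between the dotted lines, and St3gal2 alone has a value on the other side of 0.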

How the data were processed

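Agilent one-colour arrays (Cy3, design on mouse build mm9) measured total glomerular RNA, 1 array per group. The deposited fluorescence intensity had been background-subtracted and spatially detrended by the authors with Agilent Feature Extraction 11.0.1.1, per the file headers; the submitters' processing notes name version 9.1. The error estimate and other flags of the spots are per the file headers too. The series' value table, deposited by the authors, is in log2 units whose steps are not stated in the sources used here. Its columns had medians of 6.5 and 6.5, as after quantile normalization, were not centred per gene, and matched the arrays of the same label most closely (r = 0.9938 for the column labelled Sirpa-/- and 0.9945 for WT across probes).

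From the processed intensity, log2 was taken, spots that the software did not mark as outliers (98 marked on the array labelled Sirpa-/- and 123 on the WT array) were averaged per probe, and each array's 75th percentile was subtracted. A probe counted as measured when, on each array, over 50% of its spots stood well above background. Names came from RefSeq accessions in a table of GRCm38.p6, which named 27231 of 39429 probes. The brightest probe stood for a gene. Genes were counted at 2-fold, with 1.5-fold and 3-fold as alternatives. All 10 members were named, with up to 4 genes of each related list and a few fixed ones; 2 genes that this rule names are not reported here. The members and lists were chosen with earlier results of these data known. Both arrays were on slide 1. The scripts were checked on simulated data. Python 3.11.15, R 4.3.3 and limma 3.58.1 were used. The number of arrays, 1 per group, limits the precision.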

Additional observations from a re-analysis of the deposited data

How the results depend on the processing

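With 1 array per group, no spread between animals could be measured. The count of members at least 2-fold higher and that at least 2-fold lower on the array labelled Sirpa-/- were each 0 under normexp, quantile normalization, median centring, loess, the authors' deposited table, 2 other rules for dim probes (none and stricter), averaging over a gene's probes, and thresholds of 1.5-fold and 3-fold. The members' median ran between -0.08 and -0.02, where the -0.08 came with normexp, under which the median of all named genes was 0.07, against 0.00 as reported. Of 80 single values, 0 passed 1.5-fold, and 4 moved by more than the technical SD of 0.07: Cmas at 0.10 and St3gal4 at -0.08 with normexp, and St3gal2 at 0.03 and St6gal1 at 0.25 with the mean of both probes, where the second probes carry the shift. St3gal2 was the only member to change sign. Not all of the 80 values could move. The rules for dim probes left every member at its reported value, and averaging changed only members with more than 1 probe. Median centring shifted all genes by the same amount, and a count of 0 at 3-fold follows from 0 at 2-fold. Over all named genes, 285 were at least 2-fold higher and 304 lower (48.4% higher among them), against 113 and 79 (58.9%) with normexp, 80 and 103 with the stricter filter, 670 and 613 with no filter, 98 and 73 at 3-fold and 791 and 962 at 1.5-fold. The normexp offset of 50 shrinks the differences of dim probes by construction. That setting also started from the median spot signal and its background, not from the processed intensity. The part of each in the normexp shifts was not tested. No paired analysis was possible because each group has 1 array.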
